A study of Mus musculus with 12 samples.

Results

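Of the 30323 genes in the soleus table, 37 form a list of autophagy, mitophagy and lysosome genes, chosen by mouse symbol and known role with no cutoff on their values, and all 37 were found. They divide into 5 genes of initiation, 8 of nucleation and membrane supply, 9 of conjugation, 5 ATG8 genes, 4 cargo receptors and 6 lysosomal genes. The soleus is a postural muscle of the hind limb, and RNA was sequenced from male C57BL/6N mice aged 24 months. Every mouse was housed alone, came from the NIA aging colony, and ran on a home-cage wheel at will over 8 weeks. An accelerating rotarod told mice of low function (LF) from mice of high function (HF), and each kind had either a laparotomy, an incision of the abdominal wall, or a control treatment, with muscle taken 5 days after surgery. This gave 4 groups of 3 libraries: LF control and HF control, whose treatment the labels call control and no more, and LF laparotomy and HF laparotomy. No source says that each library is 1 mouse, so p-values reflect how far these libraries scatter, a spread that may be technical. All groups share the wheel, so nothing here compares running with no running, and the groups are a model of function in old males of 1 strain.

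Macroautophagy wraps cytoplasm, aggregates or organelles in a double membrane and delivers them to lysosomes for digestion. A kinase complex built around ULK1 starts the process. A lipid kinase complex, the lipid carrier ATG2 and the scramblase ATG9A, which sits on seed vesicles, serve the supply of membrane. A pair of ubiquitin-like conjugation systems attaches proteins of the ATG8 family, LC3 and GABARAP, to that membrane. Receptors such as p62 (Sqstm1), NBR1 and the mitochondrial proteins BNIP3 and NIX (Bnip3l) link cargo to ATG8, and cathepsins digest what arrives. In skeletal muscle the pathway is known for turning over mitochondria and proteins, and its mRNA levels do not by themselves measure flux.

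Values are TPM, transcript abundances that are scaled for transcript length and library total, so levels of different genes can be set side by side within a library. Sequencing depth is unknown, since TPM keep none of it. The libraries listed 16993 to 18148 genes above 0, and the 6 skeletal muscle markers (Acta1, Ckm, Des, Mb, Ttn and Myh7) summed to 36580 to 52390 TPM, so the labelled tissue carried its defining transcripts. Of the 37 genes, 36 had a mean of at least 1 TPM and were tested. Atg4d, a protease that trims ATG8 proteins, had a mean of 0.79 TPM and was not. The test was limma on log2(TPM + 1), with p-values adjusted over all 10757 genes tested in a comparison and a threshold of 0.05. A gene is said here to pass, rise or be lower only below that threshold. In whole muscle, fewer cells of a type and less RNA per cell cannot be told apart.

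The mitophagy receptor Bnip3 had the highest level of the list, and every ATG8 gene lay above every conjugation gene. Mean TPM over the 12 libraries ran from 34.8 (Nbr1) to 386 (Bnip3) among receptors and from 74.6 (Gabarapl1) to 295 (Map1lc3a) among ATG8 genes. Lysosomal genes ran from 23.3 (Tfeb) to 275.4 (Lamp1), and initiation genes from 12.4 (Ulk1) to 39.6 (Rb1cc1). Nucleation and membrane supply spanned 2.04 (Atg2b) to 60.7 (Wipi1). Among the conjugation genes that were tested the highest mean was 18.8 TPM, for Atg3, the enzyme that hands ATG8 to the lipid. Spread within groups also differed between members: the pooled SD of log2(TPM + 1) was largest for Gabarapl1, at 0.41, and among tested members smallest for Gabarapl2, at 0.064.

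Many lysosomal and autophagy promoters are known to hold the E-box CACGTG, which the basic helix-loop-helix factor TFEB and its relatives bind. RefSeq promoters (build GRCm38.p6) were matched for 29 of the 37 genes, and the 250 bases upstream of each start were searched for CACGTG, which reads the same on both strands. It was present for 7 members, 24.1% of those matched: Atg3, Atg5, Atg7, Bnip3, Ctsd, Ctsl and Lamp1. Of all 27025 genes with a promoter in that table, 6.86% held it. The longer palindrome TCACGTGA, which contains the shorter motif, was found upstream of 2 members, Atg3 and Ctsd, which is 6.9% of those matched against 0.907% of all genes. The stretches printed here, on the gene's own strand, are those that overlap no exon of the GENCODE annotation, with CACGTG in capitals, to show where the motif lies upstream of members described by their values in the results. That of Atg5 is chr10:44268295-44268338 (+ strand), that of Lamp1 is chr8:13159070-13159160 (+ strand), that of Bnip3 is chr7:138909579-138909644 (- strand) and that of Atg7, within the span of its gene, is chr6:114670934-114670999 (+ strand).
Atg5: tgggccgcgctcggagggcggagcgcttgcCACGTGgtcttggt
Lamp1: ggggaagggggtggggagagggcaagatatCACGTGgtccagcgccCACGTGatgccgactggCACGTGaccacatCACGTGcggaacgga
Bnip3: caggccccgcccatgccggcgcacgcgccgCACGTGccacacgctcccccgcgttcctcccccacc
Atg7: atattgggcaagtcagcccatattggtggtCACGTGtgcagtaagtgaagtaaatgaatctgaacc
Lamp1 stands out among these by carrying 4 matches between 15 and 61 bases upstream of its start. A match is a run of letters only, and no binding was measured in these samples. Of the 7 genes with a match, Atg5, Lamp1 and Ctsd were lower in HF than in LF soleus as deposited, while Atg3, Atg7, Bnip3 and Ctsl did not pass. Beside them, 18 of the 36 tested members and 35.3% of all tested genes were lower. With size factors, a scaling described below, Atg5 kept its call and Lamp1 and Ctsd did not. A link between the motif and the differences was not tested.

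With both treatments averaged, 18 of the 36 tested members were lower in HF than in LF soleus and 0 were higher. The lower genes covered every role but one: 4 of 5 initiation genes, 6 of 8 genes of nucleation and membrane supply, 2 of 8 conjugation genes, 2 of 4 receptors and 4 of 6 lysosomal genes, but 0 of 5 ATG8 genes. The background was large: 41.3% of all 10757 genes passed, 35.3% lower and 6.03% higher. The median gene was itself lower in HF by a log2 difference of -0.15. In controls alone that median was -0.11 and after laparotomy -0.19. Differences are therefore printed minus the median of all genes in the same comparison, while their adjusted p-values test the difference as deposited. The median of the 36 members was -0.09 on this relative scale. When each library was instead divided by a size factor, the median over genes of the ratio to the gene's geometric mean, the all-gene median was 0.013 and 40.5% of genes passed, 19.9% higher and 20.6% lower. Under that scaling 12 members passed: Ulk1, Ulk2, Atg13, Atg2b, Atg9a, Atg5, Nbr1, Lamp2 and Ctsb lower, and Atg101, Gabarap and Sqstm1 higher. So 9 of the 18 lower genes kept their call, and 3 genes joined on the other side. With quantile normalization Atg101 and Gabarap again passed as higher and Sqstm1 did not, and with TPM rescaled without the most abundant genes none of the 3 passed. With a trend on transcript length and GC content removed none of the 3 passed either.

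**Figure D1:**
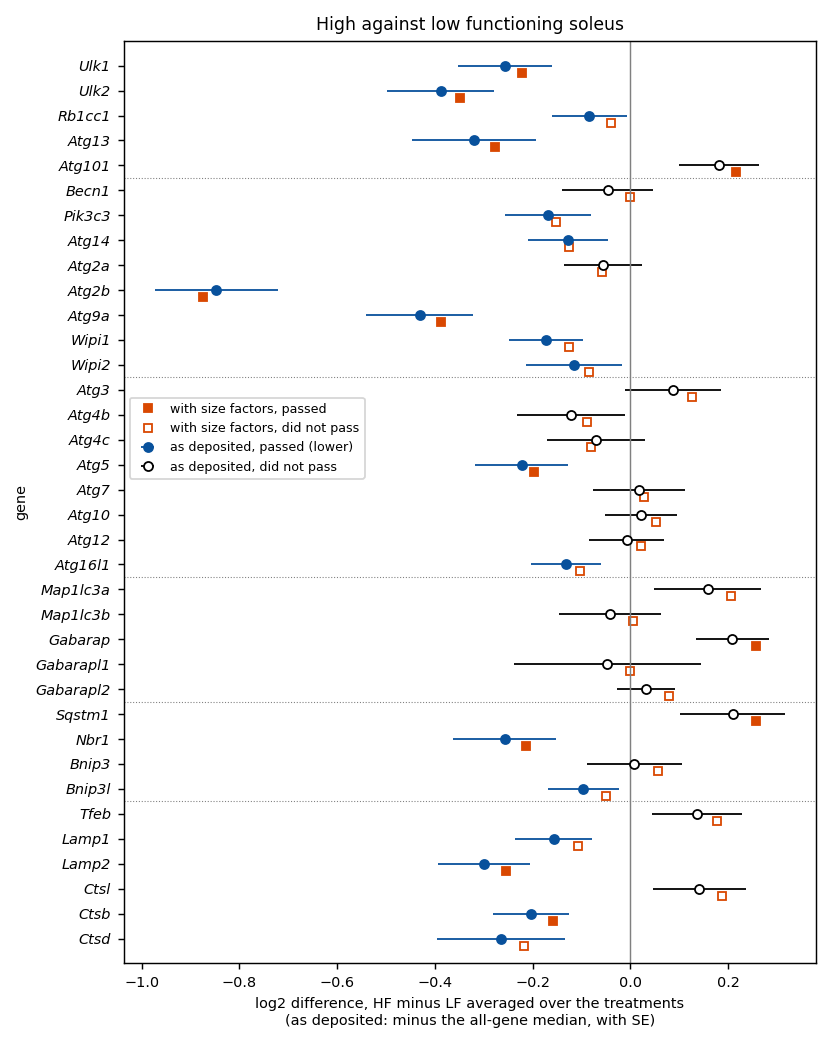
Log2 difference of HF minus LF soleus, averaged over control and laparotomy, for the 36 tested members grouped by role. Circles with SE bars are differences as deposited minus the all-gene median (filled, passed as lower), squares are differences with size factors (filled, passed), and Atg2b lies farthest to the left at -0.85.

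Of the initiation complex, the kinases Ulk1 and Ulk2 and their partner Atg13 were lower in HF soleus under both scalings, and Atg101 went the other way with size factors. Ulk1 (chr5:110784488-110810097), the kinase that starts autophagosome formation, was at 13.9, 15.6 and 17.4 TPM in LF control, 10.6, 12.4 and 15.9 TPM in LF laparotomy, 10.7, 12.5 and 11.5 TPM in HF control and 8.86, 9.56 and 9.83 TPM in HF laparotomy. No HF library reached the lowest LF library of its own treatment, and group means were 15.6 ± 1.78, 13 ± 2.71, 11.6 ± 0.903 and 9.42 ± 0.5 TPM (SD, n = 3). The relative log2 difference was -0.26 ± 0.096 (SE), with an adjusted p of 0.00566. Ulk2 (chr11:61775649-61855073), its close relative, was at 23, 27.9 and 28.7 TPM in LF control, 16.3, 23.2 and 25.6 TPM in LF laparotomy, 18.9, 19.6 and 15 TPM in HF control and 14.1, 14.7 and 14.9 TPM in HF laparotomy. HF and LF libraries of Ulk2 did not overlap within either treatment, and the difference was -0.39 ± 0.11 (adjusted p = 0.00269). Atg13 (chr2:91674618-91710576), the scaffold that activates the kinase, was at 31.8, 36.1 and 42.3 TPM in LF control, 26.1, 35.3 and 44.9 TPM in LF laparotomy, 26, 31.3 and 22.4 TPM in HF control and 23.1, 23.6 and 27.1 TPM in HF laparotomy. Its groups did overlap after laparotomy, where LF laparotomy 1 lay below the highest HF library, and the difference was -0.32 ± 0.13 (adjusted p = 0.011). Rb1cc1, which encodes the scaffold FIP200, ranged from 32.6 to 47 TPM and passed as deposited (adjusted p = 0.0284) with a relative difference of only -0.084 ± 0.077. Its call was lost with size factors (adjusted p = 0.53). It was also lost without LF control 2 (adjusted p = 0.0596), LF control 3 (0.0632), HF control 3 (0.0723) or HF laparotomy 1 (0.07). Atg101, which stabilises ATG13, ranged from 11 to 15.5 TPM. It did not pass as deposited (0.18 ± 0.082, adjusted p = 0.759) and was higher in HF with size factors by 0.22 (adjusted p = 0.028).

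The largest difference of the list was that of Atg2b, one of a pair of ATG2 lipid transfer proteins that feed the growing membrane. Atg2b (ENSMUSG00000041341, chr12:105616136-105685211) was at 2.63, 3.28 and 3.55 TPM in LF control, 1.86, 3.19 and 3.84 TPM in LF laparotomy, 1.1, 1.41 and 1.15 TPM in HF control and 0.651, 0.7 and 1.14 TPM in HF laparotomy. Every HF library was below every LF library, and group means were 3.15 ± 0.47, 2.96 ± 1.01, 1.22 ± 0.164 and 0.831 ± 0.271 TPM (SD, n = 3). The relative log2 difference was -0.85 ± 0.13 with an adjusted p of 0.000362. Since 1 TPM is added before the logarithm, that value understates a gene this low: as deposited the difference was -0.99 with that pseudocount and -1.5 with a pseudocount of 0.1. The sister gene Atg2a ranged from 2.25 to 3.56 TPM and did not pass (-0.056 ± 0.08, adjusted p = 0.0564). Atg9a (chr1:75180860-75192196), the scramblase carried by the vesicles that seed the autophagosome, was at 31.4, 33.7 and 39.9 TPM in LF control, 26.2, 34.4 and 40.6 TPM in LF laparotomy, 20.6, 26.2 and 24 TPM in HF control and 19, 22.5 and 23.1 TPM in HF laparotomy. Its HF and LF values did not overlap within either treatment, and the difference was -0.43 ± 0.11 (adjusted p = 0.00181). With size factors the differences were -0.87 for Atg2b and -0.39 for Atg9a, and both passed. On the opposite strand, exons of Gskip overlap Atg2b and exons of Ankzf1 overlap Atg9a, and the sources used here do not say whether reads were assigned by strand. Gskip differed by -0.042 ± 0.081 (adjusted p = 0.0771) and Ankzf1 by 0.20 ± 0.095 (adjusted p = 0.695), so neither neighbour passed.

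Differences were smaller in the phosphoinositide part of nucleation. WIPI1 and WIPI2 bind the lipid that the PIK3C3 kinase makes, with Beclin 1 (Becn1) and ATG14 as its partners. Wipi1 was at 65.7, 63.2 and 72.1 TPM in LF control, 59.5, 65.6 and 79.7 TPM in LF laparotomy, 53.3, 58.5 and 55.3 TPM in HF control and 50.5, 53.2 and 52.1 TPM in HF laparotomy. Its HF and LF libraries did not overlap within either treatment, and the difference was -0.17 ± 0.076 (adjusted p = 0.00583, or 0.0616 with size factors). Pik3c3 ranged from 3.78 to 6.91 TPM and differed by -0.17 ± 0.087 (adjusted p = 0.0121). Atg14 ranged from 2.58 to 4.49 TPM and differed by -0.13 ± 0.082 (adjusted p = 0.0171). Both calls were lost with size factors, at adjusted p-values of 0.0612 and 0.234. Wipi2, from 8.38 to 13 TPM, stood just past the threshold (-0.12 ± 0.098, adjusted p = 0.0473, or 0.297 with size factors). Its call was lost when 1 of 8 libraries was left out: LF control 2 (adjusted p = 0.0939) or 3 (0.107), LF laparotomy 2 (0.0875) or 3 (0.101), HF control 1 (0.0836) or 3 (0.111), or HF laparotomy 1 (0.0945) or 2 (0.0916). Becn1, from 44.2 to 68.7 TPM, did not pass (-0.046 ± 0.093, adjusted p = 0.112).

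**Figure D2:**
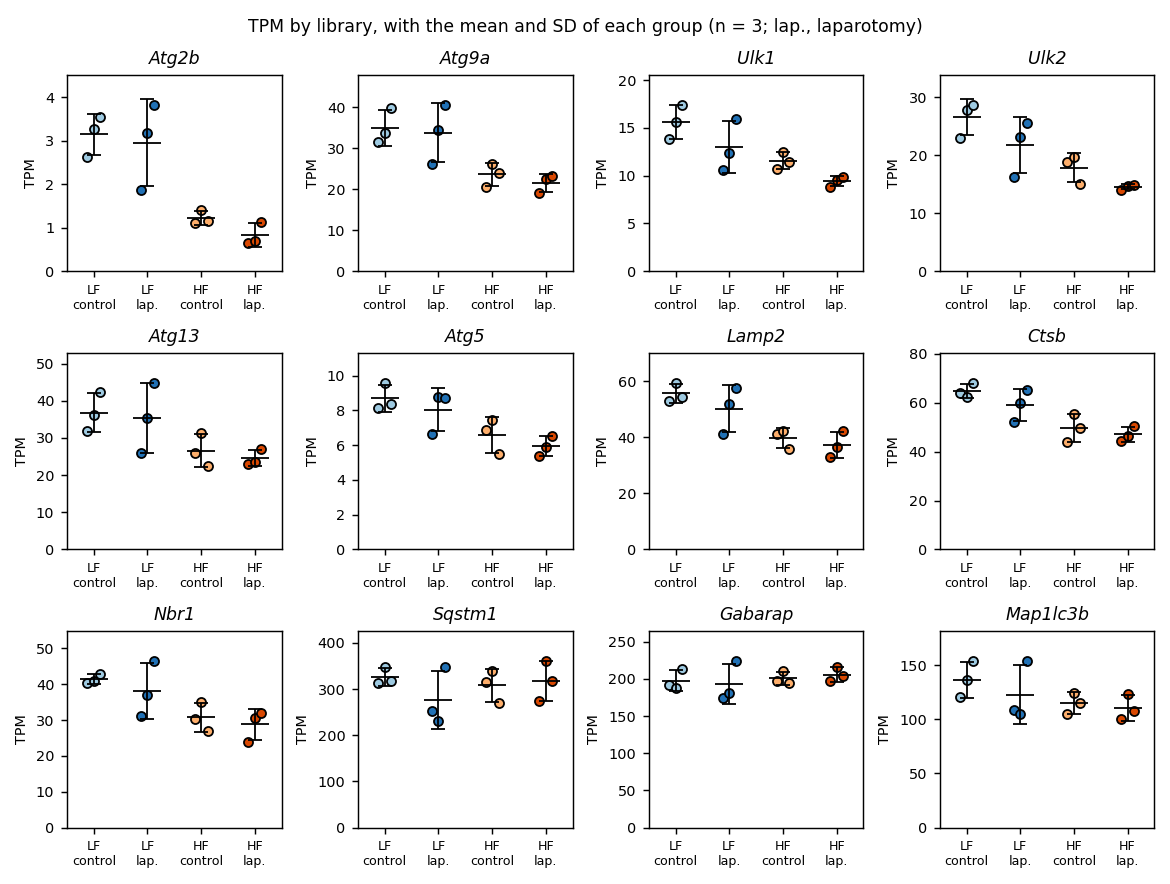
TPM in each of the 12 libraries for 12 members, 1 panel each, with the y axis in TPM starting at 0. Points are libraries and bars the mean and SD of 3, and Atg2b shows all 6 HF libraries under the lowest LF library while Gabarap and Sqstm1 overlap.

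In the conjugation systems only Atg5 and Atg16l1 were lower in HF soleus. Their proteins sit in the same complex, the one that places ATG8 on the membrane. Atg5 (chr10:44268358-44364291) was at 8.12, 9.58 and 8.38 TPM in LF control, 6.63, 8.76 and 8.72 TPM in LF laparotomy, 6.85, 7.43 and 5.46 TPM in HF control and 5.36, 5.9 and 6.51 TPM in HF laparotomy. No overlap was seen between HF and LF within a treatment, and the difference was -0.22 ± 0.095 (adjusted p = 0.00852, or 0.0308 with size factors). Atg16l1 (chr1:87755870-87792428) was at 8.95, 9.99 and 10.1 TPM in LF control, 8.03, 8.36 and 9.25 TPM in LF laparotomy, 7.18, 8.2 and 7.04 TPM in HF control and 6.72, 7.36 and 7.49 TPM in HF laparotomy. Its libraries did not overlap either, with a difference of -0.13 ± 0.072 (adjusted p = 0.00859), but the call was lost with size factors (0.103). Atg4b, the main ATG8 protease, was at 9.99, 10.9 and 12.2 TPM in LF control, 8.4, 12.3 and 14.8 TPM in LF laparotomy, 9.17, 10.03 and 9.24 TPM in HF control and 8.35, 9.01 and 9.37 TPM in HF laparotomy. Its groups overlapped and it did not pass (-0.12 ± 0.11, adjusted p = 0.0676). Atg12, the ubiquitin-like protein joined to ATG5, ranged from 7.37 to 10.1 TPM with a difference of -0.0071 ± 0.077 (adjusted p = 0.123). The remaining enzymes that passed the level filter, Atg3, Atg4c, Atg7 and Atg10, had differences of 0.087, -0.07, 0.017 and 0.021, and none passed under either scaling. Atg4d, below that filter, was at 0.705, 0.79 and 0.915 TPM in LF control, 0.753, 0.864 and 0.736 TPM in LF laparotomy, 0.651, 0.708 and 0.764 TPM in HF control and 0.83, 0.96 and 0.798 TPM in HF laparotomy.

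None of the 5 ATG8 genes passed as deposited, and Gabarap alone passed with size factors, as higher in HF. Map1lc3a (LC3A) was the most abundant, at 295, 288 and 286 TPM in LF control, 292, 247 and 346 TPM in LF laparotomy, 261, 409.7 and 291 TPM in HF control and 254, 285 and 282 TPM in HF laparotomy. Its groups overlapped, with a difference of 0.16 ± 0.11 (adjusted p = 0.946). Map1lc3b (LC3B), the form most often followed as a marker of autophagosomes, was at 120.1, 136 and 153 TPM in LF control, 109, 105 and 154 TPM in LF laparotomy, 104, 124 and 115 TPM in HF control and 100.1, 123 and 108 TPM in HF laparotomy. LF laparotomy 3 held the highest value and the groups overlapped, and the difference of -0.042 ± 0.1 did not pass (adjusted p = 0.159). Reads of Map1lc3b may be split with Gm6055, a copy that is 99.7% identical and had a mean of 4.32 TPM. Exons of Zcchc14 overlap Map1lc3b on the opposite strand, and Zcchc14 was itself lower in HF (-0.12 ± 0.091, adjusted p = 0.0313). The part of this overlap in the values of Map1lc3b was not tested. Gabarap was at 192, 188 and 213 TPM in LF control, 174, 181 and 224 TPM in LF laparotomy, 198, 210.4 and 194 TPM in HF control and 197, 216 and 204 TPM in HF laparotomy. As deposited it differed by 0.21 ± 0.074 (adjusted p = 0.526), and with size factors by 0.26 (adjusted p = 0.00294). Gabarapl2 was the steadiest tested member within groups, at 89.4, 82.6 and 93.7 TPM in LF control, 82.6, 86.2 and 92.4 TPM in LF laparotomy, 85.5, 85.2 and 82.5 TPM in HF control and 76.3, 79.4 and 77.2 TPM in HF laparotomy. It differed by 0.033 ± 0.06 (adjusted p = 0.139). Gabarapl1 was the least steady, at 91.1, 77 and 106 TPM in LF control, 52.9, 47.9 and 110.3 TPM in LF laparotomy, 74.2, 75 and 56.8 TPM in HF control and 50.1, 83.7 and 69.6 TPM in HF laparotomy. In LF laparotomy alone its values spanned a range wider than the gap between any pair of group means, and its difference was -0.047 ± 0.19 (adjusted p = 0.435).

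As a share of ATG8 TPM, which no library scaling can change, Map1lc3a held 36.1 ± 2.2, 38.5 ± 2.3, 40.2 ± 4.7 and 37.2 ± 0.94% in the LF control, LF laparotomy, HF control, then HF laparotomy libraries (SD, n = 3). Map1lc3b held 16.9 ± 1.5, 15.9 ± 0.65, 14.6 ± 0.93 and 15 ± 0.54% in the same order. Gabarap held 24.6 ± 0.37, 25.3 ± 1.6, 25.6 ± 2.1 and 28 ± 0.96%. HF minus LF was -1.63 percentage points for Map1lc3b (exact permutation p = 0.025, adjusted 0.167) and 1.91 for Gabarap (exact permutation p = 0.05, adjusted 0.2). Labels were permuted within each treatment over 400 arrangements, two-sided, and adjusted over 20 tests of shares and ratios, where the smallest p possible is 0.005. No share passed.

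Among the receptors, Nbr1 and Bnip3l were lower in HF as deposited, and Sqstm1 and Bnip3 did not pass. With size factors Nbr1 was lower, Sqstm1 was higher, and Bnip3l and Bnip3 did not pass. Sqstm1 passed in only 1 of 23 alternatives, that of size factors. Nbr1 (chr11:101552149-101581951), a receptor for ubiquitinated cargo, was at 40.3, 40.8 and 42.9 TPM in LF control, 31, 37.1 and 46.5 TPM in LF laparotomy, 30.2, 35 and 27.1 TPM in HF control and 24, 30.6 and 31.9 TPM in HF laparotomy. In controls HF and LF did not overlap, after laparotomy they did, and the difference was -0.26 ± 0.11 (adjusted p = 0.0093, or 0.0191 with size factors). Sqstm1, which encodes p62 and binds the same kind of cargo, was at 312, 348 and 318 TPM in LF control, 252, 231 and 348 TPM in LF laparotomy, 316, 340.0 and 269 TPM in HF control and 274, 361 and 318 TPM in HF laparotomy. As deposited it differed by 0.21 ± 0.11 (adjusted p = 0.669), and with size factors by 0.26 (adjusted p = 0.0304). Exons of Mrnip overlap Sqstm1 on the opposite strand, and Mrnip did not pass (-0.026 ± 0.11, adjusted p = 0.22). Bnip3 and Bnip3l encode receptors of the outer mitochondrial membrane that mark mitochondria for removal. Bnip3 was the most abundant member of the whole list, at 401, 412 and 448 TPM in LF control, 334, 387 and 446 TPM in LF laparotomy, 416, 383 and 292 TPM in HF control and 339, 383 and 396 TPM in HF laparotomy. Its groups overlapped, with a difference of 0.0085 ± 0.097 (adjusted p = 0.267). Bnip3l was at 76.3, 73.8 and 84.8 TPM in LF control, 65.2, 65.3 and 79.4 TPM in LF laparotomy, 68.8, 71.9 and 63.5 TPM in HF control and 53.7, 57.7 and 59.5 TPM in HF laparotomy. HF and LF libraries of Bnip3l did not overlap within a treatment, but the relative difference was small, -0.096 ± 0.073 (adjusted p = 0.018). That call was lost with size factors (adjusted p = 0.4) and without LF control 3 (0.0511).

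Among lysosomal genes, Lamp2 and Ctsb were lower in HF soleus under both scalings, Lamp1 and Ctsd only as deposited, and Tfeb and Ctsl under neither. Lamp2 (chrX:38401357-38456454), a membrane protein needed for fusion and for chaperone-mediated autophagy, was at 53.2, 59.5 and 54.6 TPM in LF control, 41.1, 52.1 and 57.6 TPM in LF laparotomy, 41.1, 42.4 and 35.8 TPM in HF control and 33.1, 36.4 and 42.4 TPM in HF laparotomy. The lowest LF library after laparotomy lay within the HF range, and the difference was -0.30 ± 0.093 (adjusted p = 0.00297, or 0.00495 with size factors). Lamp1 (chr8:13159161-13175338), its more abundant relative and the gene with 4 upstream CACGTG matches printed above, was at 295, 304 and 339 TPM in LF control, 258, 288 and 346 TPM in LF laparotomy, 238, 259 and 262 TPM in HF control and 221, 252 and 243 TPM in HF laparotomy. Its HF and LF libraries did not overlap within a treatment, and it differed by -0.16 ± 0.079 (adjusted p = 0.00896, or 0.16 with size factors). Ctsb (chr14:63122462-63145923) encodes cathepsin B, a cysteine protease, and was at 64, 62.5 and 68.2 TPM in LF control, 52.3, 60.01 and 65.1 TPM in LF laparotomy, 43.8, 55.4 and 49.9 TPM in HF control and 44.5, 46.4 and 50.3 TPM in HF laparotomy. Again no overlap was seen within a treatment, with a difference of -0.20 ± 0.078 (adjusted p = 0.00402, or 0.0299 with size factors). Its exons overlap those of Fdft1 on the opposite strand, which did not pass (-0.085 ± 0.098, adjusted p = 0.0725). Ctsd, the aspartic protease cathepsin D, ranged from 197 to 413 TPM and differed by -0.27 ± 0.13 (adjusted p = 0.023). The Ctsd call was lost with size factors (0.113) and without LF control 3 (adjusted p = 0.0548), HF control 1 (0.0583) or HF laparotomy 1 (0.0549). Ctsl, cathepsin L, was at 87.8, 89.3 and 96.7 TPM in LF control, 76.7, 62 and 84.1 TPM in LF laparotomy, 76.5, 95.4 and 76.1 TPM in HF control and 69.9, 87 and 87.6 TPM in HF laparotomy. Ctsl did not pass (0.14 ± 0.095, adjusted p = 0.966, or 0.0721 with size factors). Tfeb, the regulator of lysosomal genes, was at 22.7, 19.7 and 26 TPM in LF control, 20.2, 24.3 and 27.3 TPM in LF laparotomy, 23.3, 23.6 and 28.3 TPM in HF control and 21.8, 20.6 and 21.4 TPM in HF laparotomy. The groups of Tfeb overlapped, with 0.14 ± 0.092 (adjusted p = 0.939, or 0.106 with size factors).

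Of the 18 calls as deposited, 14 held without every single library, and 8 held under every alternative processing in which they were tested: Ulk1, Ulk2, Atg13, Atg2b, Atg9a, Atg5, Lamp2 and Ctsb. Atg2b was not tested at a mean of at least 5 TPM, which it does not reach. With single libraries left out, 33.7% to 47.4% of all genes passed on average. How many calls outside the list held in the same way was not counted, so these counts are not particular to the members. Of the 36 members, 11 had every HF library below every LF library of the same treatment, for both treatments, where 22.7% of all tested genes did, and 0 had the reverse, where 2.32% did. Those 11 were Ulk1, Ulk2, Pik3c3, Atg2b, Atg9a, Wipi1, Atg5, Atg16l1, Bnip3l, Lamp1 and Ctsb.

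**Figure D3:**
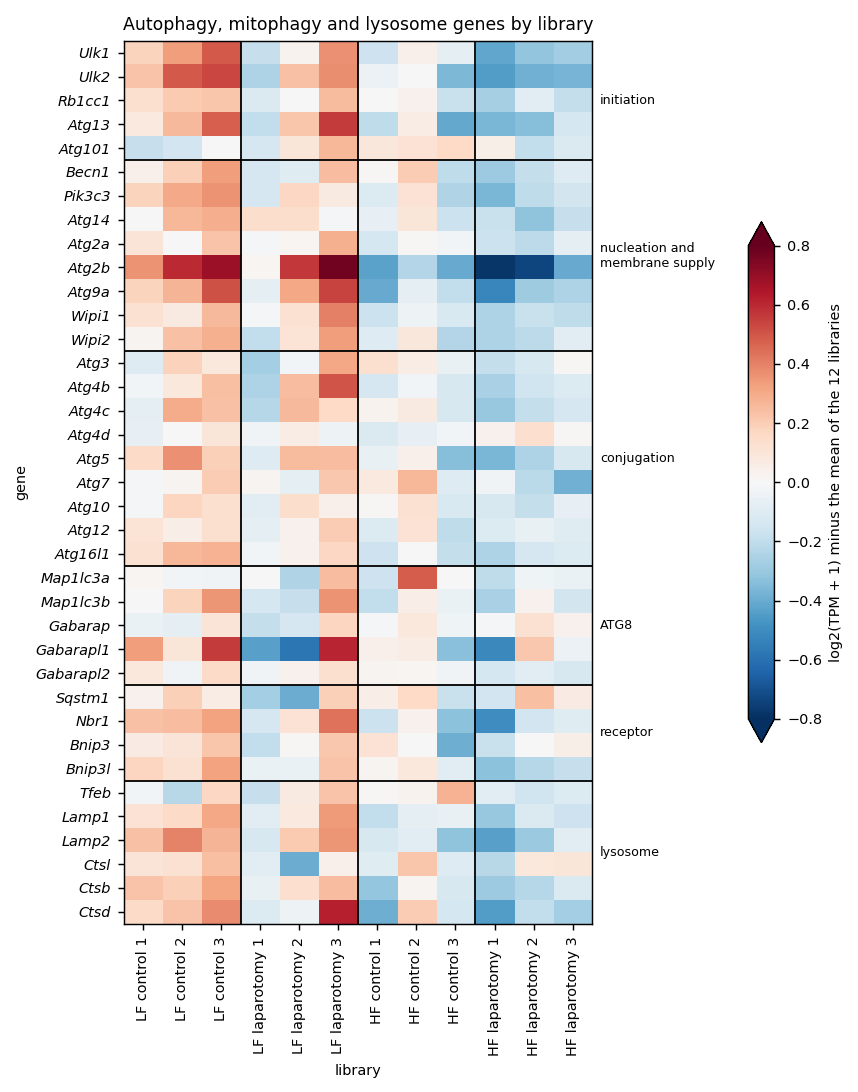
Deviation of log2(TPM + 1) from the gene's mean over the 12 libraries (colour, red above and blue below) for the 37 members in rows, by role, and libraries in columns, by group. LF control 3 and LF laparotomy 3 are above the mean for nearly all members and HF laparotomy 1 is below it for nearly all.

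Single libraries shifted most members at once. In LF control 3 and in LF laparotomy 3 only 1 of 36 members each lay below its own mean, and in HF laparotomy 1 35 did. LF laparotomy 1 had 32 below. In HF control 2 only 7 lay below, and in the other HF libraries 24 to 35. The median deviation of the members over the libraries ran from -0.26 (HF laparotomy 1) to 0.27 (LF control 3). The median of all genes moved alongside it, from -0.22 (HF laparotomy 1) to 0.19 (LF laparotomy 3), and the size factors spanned 0.836 to 1.17.

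As deposited, the members that passed within a treatment were all among the 18 that passed on average. Among controls, 5 members were lower in HF than in LF (10.5% of all genes passed, 8.04% lower and 2.44% higher): Ulk2 (-0.44 ± 0.16, adjusted p = 0.043), Atg2b (-0.79 ± 0.18, 0.0177), Atg9a (-0.44 ± 0.15, 0.0433), Lamp2 (-0.37 ± 0.13, 0.0405) and Ctsb (-0.28 ± 0.11, 0.0445). After laparotomy 7 were lower (26% of all genes passed, 24.5% lower and 1.5% higher): those 5 with Ulk1 (-0.21 ± 0.14, adjusted p = 0.0435) and Wipi1 (-0.19 ± 0.11, 0.0244). There Ulk2 differed by -0.33, Atg2b by -0.90, Atg9a by -0.42, Lamp2 by -0.22 and Ctsb by -0.13. No member was higher in either. With size factors 7 passed among controls (18% of all genes, 8.92% lower and 9.05% higher), Ulk2, Atg2b, Atg9a, Nbr1, Lamp2 and Ctsb as lower and Atg101 as higher. After laparotomy 5 passed with size factors (20% of all genes, 10.7% lower and 9.31% higher), Atg2b and Atg9a as lower and Gabarap, Sqstm1 and Ctsl as higher. Of the calls as deposited within a treatment, only that of Atg2b after laparotomy held without every single library, with adjusted p-values up to 0.024. The counts of members moved with those of all genes when single libraries were left out. Among controls 0 members passed without LF control 2, LF control 3, HF control 1 or HF control 3, where 0.0186%, 0.446%, 0.437% and 0.614% of all genes did. There 1 passed without LF laparotomy 2 (7.4% of all genes) or HF laparotomy 2 (5.38%), and 2 without LF control 1 (6.83%), HF laparotomy 1 (7.54%) or HF laparotomy 3 (8.15%). Without LF laparotomy 1 it was 12 (19.3%) and without LF laparotomy 3 it was 10 (19.1%). After laparotomy 1 passed without LF laparotomy 2 (9.74% of all genes), LF laparotomy 3 (10.6%) or HF laparotomy 1 (10.3%), 2 without HF laparotomy 2 (10%), 3 without HF laparotomy 3 (21.7%) and 18 without LF laparotomy 1 (38.6%). Whether the HF and LF difference itself changed with treatment was tested by the interaction, in which 0 of 36 members passed (0% of all genes).

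Laparotomy was followed by no change that passed in any member. The median gene differed by -0.029 in LF and -0.12 in HF. By limma, 0 of 36 members and 0% of all genes passed in LF soleus, in HF soleus, or averaged, as deposited or with size factors. At an unadjusted p below 0.05 there were 1 member in LF (2.71% of all genes), 2 in HF (6.18%), 4 averaged (6.94%) and 1 in the interaction (3.08%). Relative differences ran from -0.44 (Gabarapl1) to 0.22 (Atg101) in LF and from -0.17 (Atg7) to 0.17 (Bnip3) in HF.

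The smallest p in LF belonged to Ctsl, which every LF laparotomy library held below every LF control (76.7, 62 and 84.1 against 87.8, 89.3 and 96.7 TPM), with a relative difference of -0.27 ± 0.13 and an adjusted p of 0.9995. Pik3c3 was the other member without overlap there, and 3.92% of all genes had the same pattern. In LF 0 members lay higher after laparotomy without overlap (2.54% of all genes), and in HF 0 did (0.604%). In HF, 9 members lay lower after laparotomy without overlap, where 16.6% of all genes did: Ulk1, Ulk2, Atg101, Atg14, Wipi1, Atg4c, Gabarapl2, Bnip3l and Tfeb. Bnip3l was at 53.7, 57.7 and 59.5 TPM against 68.8, 71.9 and 63.5 TPM in HF controls, a relative difference of -0.13 ± 0.1 (adjusted p = 0.655). Averaged over LF and HF, Bnip3l again had the smallest p of the list (-0.13 ± 0.073, adjusted p = 0.683), ahead of Ulk1 (-0.19 ± 0.096) and Ulk2 (-0.21 ± 0.11). Atg101 had the smallest p of the list in the interaction, with a laparotomy difference of 0.22 in LF and -0.087 in HF (adjusted p = 0.9998). In simulations with the spread of these libraries, the LF comparison recovered 91.2% of changes of 1 log2 and 35.8% of changes of 0.5 log2. They held 200 changed genes, where 0% of all genes passed in the data, and no shift shared by the genes of a library. These rates may therefore not hold for a member of the list.

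**Figure D4:**
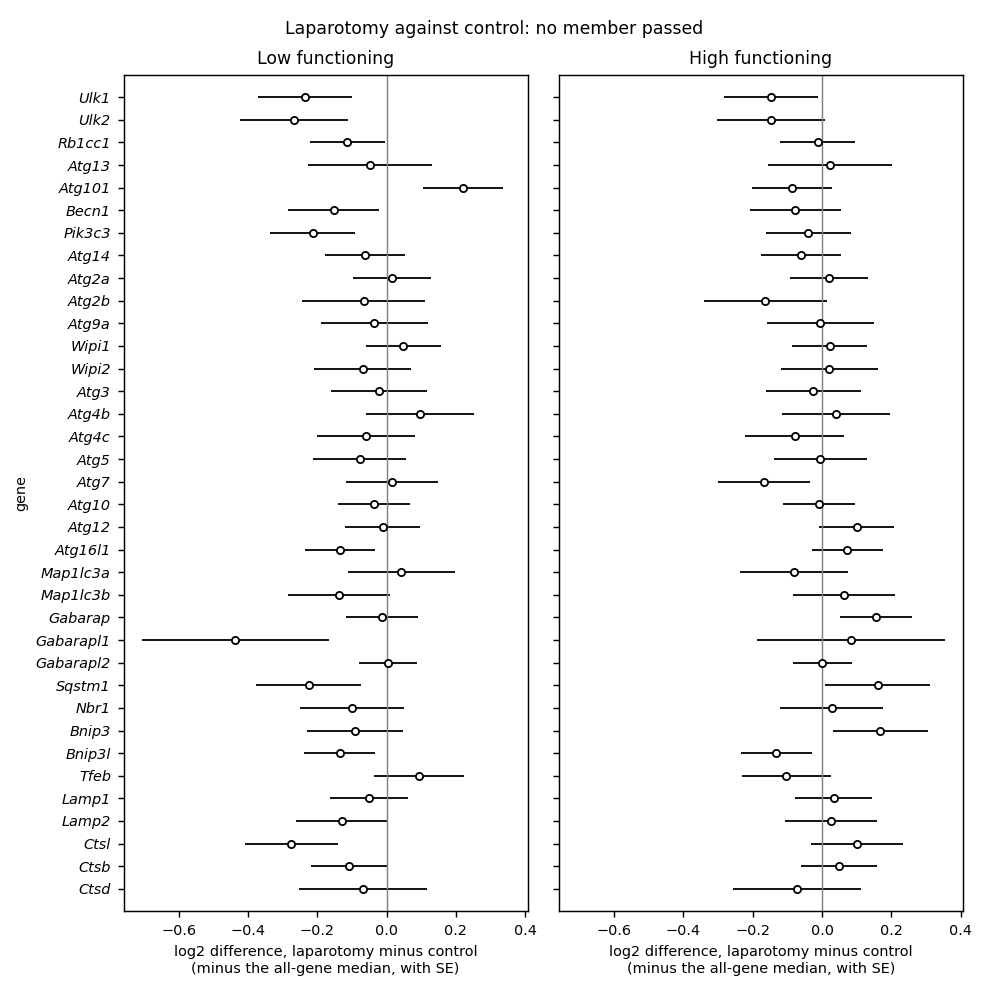
Log2 difference of laparotomy minus control, minus the all-gene median, with SE, for the 36 tested members in LF (left) and HF (right) soleus. All points are open because none passed, and the widest bar is that of Gabarapl1.

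Ratios of related members within a library cannot be changed by scaling, and 5 pairs were compared, chosen with the values known. In each pair the first gene has the longer mean transcript, for example 4601 against 2599 bases for Atg2b and Atg2a. For Nbr1 and Sqstm1 the lengths are 2010 and 1222 bases. The differences between HF and LF went with transcript length, as given below, and the part of length in the ratios was not tested. Atg2b over Atg2a was 0.872, 1.2 and 1.05 in LF control, 0.686, 1.14 and 1.08 in LF laparotomy, 0.461, 0.508 and 0.426 in HF control and 0.28, 0.312 and 0.447 in HF laparotomy. LF soleus thus held about as much Atg2b as Atg2a, every HF library held less, and the log2 ratio differed by -1.32. Its exact permutation p was 0.005, the smallest the design allows, and the adjusted value over 20 tests was 0.05, which does not lie below the threshold. Nbr1 over Sqstm1 was 0.129, 0.117 and 0.135 in LF control, 0.123, 0.161 and 0.133 in LF laparotomy, 0.0956, 0.103 and 0.1 in HF control and 0.0876, 0.0848 and 0.1 in HF laparotomy. Every HF library was again below every LF library, with a log2 difference of -0.48, the same exact permutation p of 0.005 and the same adjusted value. With each library left out in turn the differences ran from -1.43 to -1.25 for Atg2b over Atg2a and from -0.52 to -0.42 for Nbr1 over Sqstm1. Ulk2 over Ulk1 (-0.13, exact permutation p = 0.12), Lamp2 over Lamp1 (-0.15, 0.085) and Bnip3l over Bnip3 (-0.11, 0.205) did not pass between HF and LF. Without each library in turn Ulk2 over Ulk1 ran from -0.18 (exact permutation p = 0.01, without HF control 1) to -0.07 (without HF control 3), and was -0.086 without LF laparotomy 2. Lamp2 over Lamp1 ran from -0.19 (exact permutation p = 0.035, without HF laparotomy 3) to -0.10. Bnip3l over Bnip3 ran from -0.16 (exact permutation p = 0.025, without HF control 3) to -0.06 (without HF control 1). Between laparotomy and control, Bnip3l over Bnip3 differed by -0.17 (exact permutation p = 0.035, adjusted 0.175).

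**Figure D5:**
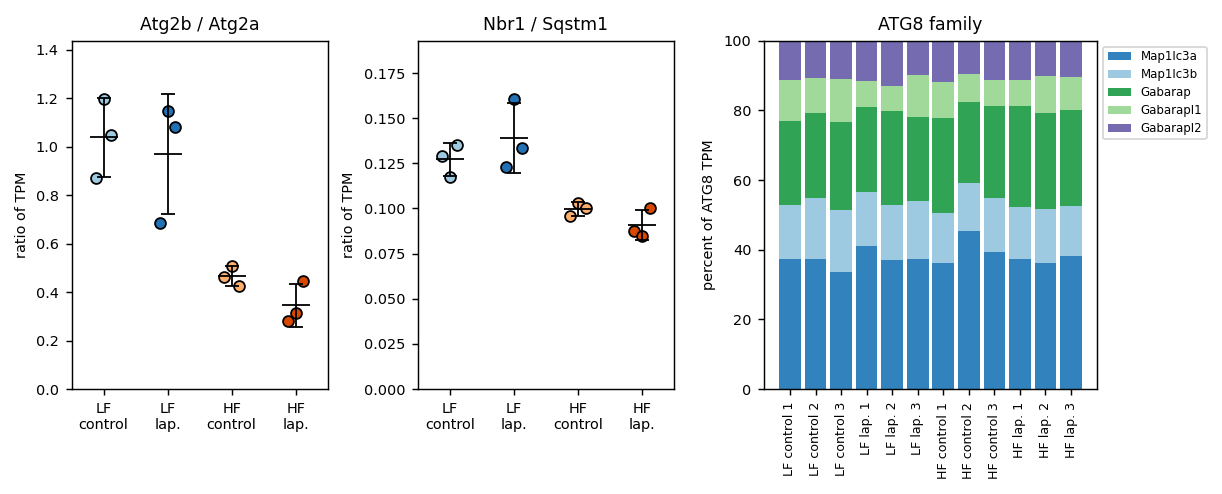
Ratio of Atg2b to Atg2a and of Nbr1 to Sqstm1 TPM by library, with mean and SD of 3 (left and middle), and the percent of ATG8 TPM held by each of the 5 ATG8 genes in each library (right). HF libraries lie below LF libraries in both ratios, and no ATG8 share passed between HF and LF.

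Other genes of the same steps were read from lists drawn up with earlier results known. Their counts stand beside a background in which 35.3% of all genes were lower and 6.03% higher (20.6% and 19.9% with size factors). Of 12 further initiation and nucleation genes, 8 were lower in HF (5 with size factors) and 0 higher, led by Sh3glb1, which bends membranes (-0.45 ± 0.07, adjusted p = 0.00031), and Pik3r4, the regulatory subunit of the PIK3C3 complex (-0.54 ± 0.097, 0.000499). Of 3 further conjugation genes, the protease Atg4a was lower (-0.13 ± 0.078, adjusted p = 0.014) and Atg16l2 higher (0.46 ± 0.098, 0.0214). With size factors Atg4a did not pass (0.204). Of 18 further receptors and mitophagy genes, 11 were lower (6 with size factors, and then 2 higher), led by Ncoa4, the ferritin receptor (-0.50 ± 0.083, adjusted p = 0.000374), and Wdfy3, an adaptor for aggregates (-0.48 ± 0.084, 0.000404). Of 13 genes of fusion between autophagosome and lysosome, 10 were lower and 1 higher (8 and 3 with size factors), led by the SNARE Stx17 (-0.44 ± 0.09, adjusted p = 0.000698) and the tethering factor Vps33a (-0.37 ± 0.091, 0.00133). The relative medians of these 4 lists were -0.15, 0.016, -0.16 and -0.22, beside 0 for all genes.

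Further hydrolases and lysosomal membrane genes had medians closer to that of all genes than the lists of fusion and V-ATPase genes. Of 38 further hydrolases, 13 were lower and 0 higher (5 and 3 with size factors), with a relative median of -0.044, and a share lower close to the 35.3% of all genes. Gusb, which encodes beta-glucuronidase, differed by -0.51 ± 0.12 (adjusted p = 0.00154). Of 17 membrane and sorting genes, 6 were lower (4 with size factors, and then 1 higher), with a relative median of -0.041, led by the mannose 6-phosphate receptor Igf2r (-0.50 ± 0.11, adjusted p = 0.00102) and by Sort1 (-0.28 ± 0.089, 0.00313). Of 17 subunits of the V-ATPase, the proton pump that acidifies lysosomes, 9 were lower and 1 higher (7 and 4 with size factors), with a relative median of -0.16, led by Atp6v0e2 (-0.54 ± 0.11, adjusted p = 0.000725) and Atp6v1d (-0.37 ± 0.1, 0.0021). Of 21 regulators around mTORC1 and TFEB, 12 were lower (9 with size factors, and then 3 higher), with a relative median of -0.099, led by Rptor, which holds substrates for mTORC1 (-0.46 ± 0.095, adjusted p = 0.000747), and Rragd, a GTPase that brings mTORC1 to the lysosome (-0.39 ± 0.099, 0.00158). In these 8 lists 0 genes passed in any laparotomy comparison.

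Lysosomal genes are also expressed by macrophages, so markers of other cells were read beside them. The 15 macrophage markers, 10 of them with a mean of at least 1 TPM, summed to 44.2 to 109 TPM in LF control, 46.0 to 110 TPM in LF laparotomy, 43.5 to 101 TPM in HF control and 41.3 to 137 TPM in HF laparotomy, and 0 passed between HF and LF. No macrophage marker was at 0 in every library, and Tyrobp was listed at 0 in LF control 2, LF control 3 and LF laparotomy 1. The 7 endothelial markers summed to 162 to 212 TPM in LF and 189 to 265 TPM in HF libraries, and the 5 Schwann cell markers to 62.5 to 76.4 TPM in LF and 76.5 to 242 TPM in HF libraries. The 5 adipocyte markers, 3 of them with a mean of at least 1 TPM, summed to 292 to 383 TPM in LF and 374 to 601 TPM in HF libraries. Most of that sum was Fabp4, at 274 to 372 TPM in LF and 351 to 529 TPM in HF libraries. Adipoq and Cfd were lowest of all libraries in HF laparotomy 1, at 0.429 and 3.07 TPM. Myh4, the fastest myosin, was above 30 TPM in 3 libraries, LF control 3, LF laparotomy 1 and HF laparotomy 2. Without those 3, 16 members passed on average (33.9% of all genes), 1 among controls (1.52%) and 10 after laparotomy (24.6%). Myh2, the myosin of another fast fibre type, was at 2345 to 3381 TPM in the 6 LF libraries and at 1098 to 2082 TPM in the 6 HF libraries, with no overlap (-0.80 ± 0.12, adjusted p = 0.000374). Both belong to a list of 9 fast fibre markers, of which no other gene separated HF from LF libraries without overlap. That list summed to 28440 to 37660 TPM in LF and 23370 to 36530 TPM in HF libraries. The 7 slow fibre markers summed to 30320 to 40010 TPM in LF and 36410 to 45210 TPM in HF libraries. The part of these cell markers in the results was not tested.

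The differences between HF and LF also went with transcript length. Over the 36 members the Spearman correlation of the averaged difference with mean transcript length was -0.58, and over all 10757 tested genes it was -0.35, both as descriptions of genes that share the same libraries. Of the ATG8 genes, the role with none lower, Map1lc3a, Gabarap, Gabarapl1 and Gabarapl2 have mean transcripts of 872 to 1044 bases and Map1lc3b 2169. The median over the tested members is 1647 bases. With a trend on length and GC content removed, 10 of the 18 calls remained, where 34% of all genes passed. Nbr1 no longer passed (adjusted p = 0.071), and 0 members were higher. The part of length in the results was not otherwise tested.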

How the data were processed

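RNA of soleus muscle was sequenced in 12 libraries, 3 in each of 4 groups, from polyA-selected RNA (TruSeq Stranded kit, per the labels' protocols). The deposited table holds gene-level TPM, which the authors made from reads. The submitters' processing notes name kallisto, DESeq2 and GRCm38 without versions or roles. Neither the annotation nor the strand setting of the quantification is given in the sources used here. TPM summed to 956473 to 962830 per library, so a small part of each library lies outside the table. Read depth is unknown, and no counting interval could be computed.

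Identifiers were matched to GENCODE M21 symbols and coordinates (GRCm38), with 29857 of 30323 matched. The 10757 genes whose mean reached 1 TPM were fitted as log2(TPM + 1) over all 12 libraries by limma 3.58.1 (R 4.3.3), with the variance trended on mean level, a mean for each group, and 8 residual degrees of freedom. The 7 contrasts were two-sided and adjusted by Benjamini and Hochberg at 0.05. Ratios and ATG8 shares were compared by exact permutation within treatments. Near-identical transcripts were searched with blastn 2.17.0 at 95% identity and 80% cover. In 5 simulations with 200 of 10757 genes changed, the averaged HF against LF comparison found 71.8% of genes changed by 0.5 log2 and 97.8% of those changed by 1 log2, with 5.04% of calls false. The simulations held no shift shared by the genes of a library and far fewer changed genes than the 41.3% that passed in the data. Their rates may therefore not hold for the data.

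The members, the further lists and the ratios were chosen with earlier results of these data known. Values by library are given for the 3 members of each role with the smallest p in averaged HF against LF and for 10 members fixed by name (Map1lc3a, Map1lc3b, Gabarapl1, Sqstm1, Bnip3, Bnip3l, Ulk1, Tfeb, Ctsl and Lamp1), and 2 genes are named per further list by smallest p. Atg4d and Gabarap were added after their values were seen. A gene that the rule names is not reported here. Of the 7 promoter stretches that the rule would show, those of Ctsd, Atg3 and Ctsl overlap exons and are not printed. The alternatives are given with the limits of the results. Replicate numbers follow accession order and pair nothing.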

Additional observations from a re-analysis of the deposited data

How the results depend on the processing

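Laparotomy comparisons and the interaction gave 0 calls among the members under every alternative run. Between HF and LF the counts were 5 among controls, 7 with laparotomy and 18 on average. The shares of all genes that passed were 10.5%, 26% and 41.3%, and such shares follow in brackets in the same order. With a pseudocount of 0.5 the counts were 5, 7 and 18 (10.5%, 26.1% and 41.4%). With 0.1 they were 6, 6 and 18 (10.3%, 26.4% and 41.3%). No filter on low values gave 0, 2 and 16 (0.532%, 6.54% and 16.5%). A mean of at least 5 TPM gave 5, 10 and 16 (17.3%, 33.9% and 49.2%). Size factors gave 7, 5 and 12 (18%, 20% and 40.5%), and quantile normalization 8, 4 and 14 (19.4%, 20.3% and 40.8%). TPM were also rescaled after dropping 13 genes of the mitochondrial genome and the 10 most abundant genes. That gave 12, 4 and 16 (20.8%, 17.7% and 40.6%). Robust eBayes gave 5, 6 and 18 (11.3%, 26.2% and 41.3%) and a fast muscle covariate 5, 5 and 18 (13%, 22.6% and 41.4%). That covariate was log2(TPM + 1) of Myh4 minus that of Myh7. It does not hold Myh2, the fast fibre myosin that differed between HF and LF. A fit of only the groups compared gave 7 in controls (14.8%) and 2 after laparotomy (12.7%). It has no separate value for the averaged comparisons or the interaction. Without the 3 libraries with Myh4 above 30 TPM the counts were 1, 10 and 16 (1.52%, 24.6% and 33.9%). With a length and GC trend removed they were 3, 3 and 10 (11.2%, 15.7% and 34%). Leaving out each library in turn gave 0 to 12 calls in controls (0 without LF control 2, LF control 3, HF control 1 or HF control 3, 12 without LF laparotomy 1). After laparotomy it gave 1 to 18 (1 without LF laparotomy 2, LF laparotomy 3 or HF laparotomy 1, 18 without LF laparotomy 1). The shares of all genes for these are given in the results. Averaged counts ran from 14 (33.7%, without LF control 3) to 21 (47.4%, without LF laparotomy 1). The cause of these shifts was not tested. No called difference of a member changed direction under any alternative. Leaving out libraries for the ratios was chosen after seeing the data and turned no ratio of Atg2b to Atg2a or of Nbr1 to Sqstm1. No paired analysis was possible because the labels give no replicate numbers shared by groups. TPM carry no depth, so no detection limit can be given for low members such as Atg4d and Atg2b.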
